A study of Mus musculus with 6 samples.

Results

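The 10 RNAs described here are long noncoding RNAs (lncRNAs) whose levels in these cells ranged widely: the nuclear RNAs Malat1 and Neat1, the Myc-neighbouring RNA Pvt1, and 7 hosts of small nucleolar RNAs (snoRNAs), namely Gas5, Snhg1, Snhg3, Snhg5, Snhg6, Snhg8 and Snhg12. They were chosen by name, and all 10 were found by Ensembl identifier among the 53465 genes of the count table. Poly(A)-selected RNA was sequenced from 4T1 cells, a mouse mammary carcinoma line that spreads spontaneously in BALB/c mice, as the parental line (P, 3 libraries) and as an axitinib-resistant line (AxR, 3 libraries). Axitinib is a tyrosine kinase inhibitor of the VEGF receptors. AxR cells came from spontaneous metastatic lesions, of lung or lymph node by the methods, in mice that received axitinib at 100 mg/kg/day. They were then kept in culture with 0.5 μM axitinib, for over 2 months by the labels. P libraries carry no treatment label, but the growth label names axitinib for all 6 libraries, and the study describes P cells as vehicle-treated. Both groups share the 4T1 background, no engineered allele is named, and AxR is 1 derived line, so in vivo passage, selection, drug exposure and culture history cannot be told apart. The sources used here do not say whether the 3 libraries of a line were separate cultures, so p-values measure only the spread between these libraries, which may be technical.

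Malat1 is an unspliced RNA retained in nuclear speckles, bodies rich in splicing factors, and Neat1 is the scaffold on which paraspeckle proteins assemble. Both lie next to each other on the same chromosome, and both have a long transcript whose 3′ end is made by RNase P cleavage beside a genome-encoded A-rich tract rather than by polyadenylation. The snoRNA hosts carry snoRNAs in their introns. These small RNAs guide 2′-O-methylation (box C/D) or pseudouridylation (box H/ACA) of ribosomal and other RNAs. The spliced hosts themselves commonly start with a pyrimidine-rich stretch, as ribosomal protein mRNAs do, and many are degraded by nonsense-mediated decay when they are translated.

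The ends of the nuclear RNAs are shown because the libraries were poly(A)-selected, and how each end was captured was not tested. All positions are GRCm38, and transcript sequences are from GENCODE M21. In Malat1 (minus strand, chr19:5795982-5796091) the capitals mark the A-rich tract, 292 bases before the annotated end of the 6983-base transcript, with 12 A in a row. In the long Neat1 transcript (minus strand, chr19:5824708-5824817) they mark the A-rich end itself. In the short Neat1 transcript, 3004 bases long (minus strand, chr19:5842307-5842366), they mark the polyadenylation signal AATAAA.
Malat1 A-rich tract: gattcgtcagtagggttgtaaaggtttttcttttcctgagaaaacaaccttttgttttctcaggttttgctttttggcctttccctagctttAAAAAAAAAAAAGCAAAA
Neat1 long transcript end: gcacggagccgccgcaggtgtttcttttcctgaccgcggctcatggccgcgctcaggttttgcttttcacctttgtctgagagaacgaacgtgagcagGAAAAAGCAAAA
Neat1 short transcript end: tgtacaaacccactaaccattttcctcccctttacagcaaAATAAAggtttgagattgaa

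The start sites of the hosts are shown to see how far each holds a pyrimidine stretch near its start. RefSeq (GRCm38.p6) held promoter windows for 7 of the 10 members, in 8 windows, and none was given for Neat1, Pvt1 and Snhg6. Each line below holds 80 bases, 40 before the start and 40 from it, with the longest run of C and T within 20 bases either side of the start in capitals. The positions are chr1:161035126-161035205 (plus strand) for the second of 2 Gas5 starts, chr19:8723447-8723526 (plus) for Snhg1, chr9:88522858-88522937 (minus) for Snhg5, chr3:123508297-123508376 (minus) for Snhg8, chr4:132308638-132308717 (plus) for Snhg12 and chr4:132353647-132353726 (minus) for Snhg3.
Gas5 second start: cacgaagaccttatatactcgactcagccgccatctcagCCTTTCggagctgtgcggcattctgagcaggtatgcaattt
Snhg1 start: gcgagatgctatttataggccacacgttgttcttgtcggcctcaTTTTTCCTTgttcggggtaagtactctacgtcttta
Snhg5 start: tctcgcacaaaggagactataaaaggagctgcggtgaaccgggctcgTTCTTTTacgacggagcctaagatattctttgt
Snhg8 start: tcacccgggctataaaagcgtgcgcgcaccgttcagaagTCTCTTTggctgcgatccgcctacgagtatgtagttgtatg
Snhg12 start: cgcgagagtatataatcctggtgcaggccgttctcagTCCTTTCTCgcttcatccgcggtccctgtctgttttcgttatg
Snhg3 start: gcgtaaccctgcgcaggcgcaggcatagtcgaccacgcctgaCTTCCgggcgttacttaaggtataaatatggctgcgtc

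The run was 9 bases in Snhg1 and Snhg12, a length reached by 10.7% of all 32851 promoter windows. It was 7 bases in Snhg5 and Snhg8 (reached by 24.3% of windows), 6 at the second Gas5 start (37.5%) and 5 in Snhg3 (57.5%), against a median of 5 over all windows. The first Gas5 start had 3 (93.7%) and Malat1 had 4 (78.6%). With the start as base 1, the marked run began at -1 at the second Gas5 start and in Snhg8 and at -3 in Snhg12, and so covered the start. In Snhg3, Snhg1 and Snhg5 it began after the start, at base 3, 5 and 8. The letters TATAA, on either strand of the 300-base windows and chosen after these sequences were seen, were present in 6 of the 8 member windows and in 24.9% of all windows. The 6 were those of the second Gas5 start, Snhg1, Snhg3, Snhg5, Snhg8 and Snhg12. In Snhg3 the letters lay after the start, and at the second Gas5 start and in Snhg1 they were on the other strand only. Because the letters were picked from these windows, the comparison with all windows is not a test. Hosts that fell and hosts that rose both held them.

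The snoRNAs that the hosts carry are represented by 3 sequences. Each of the 3 also overlaps an annotated exon of its host, so the exon length of the host takes in at least part of it. In Snord47 of Gas5 (chr1:161038082-161038158, plus strand) and Snord50a of Snhg5 (chr9:88521529-88521600, minus strand) the capitals mark box C (TGATGA) and box D (CTGA). In Snora24 of Snhg8 (chr3:123507937-123508066, minus strand) they mark the ACA box near the 3′ end.
Snord47: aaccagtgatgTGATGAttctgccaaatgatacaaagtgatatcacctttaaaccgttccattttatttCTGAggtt
Snord50a: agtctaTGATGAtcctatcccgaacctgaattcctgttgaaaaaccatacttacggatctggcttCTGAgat
Snora24: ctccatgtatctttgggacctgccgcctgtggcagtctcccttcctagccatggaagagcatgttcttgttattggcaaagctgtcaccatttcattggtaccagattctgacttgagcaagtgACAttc

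The libraries held between 15495260 and 17294525 estimated counts, and 13550 genes passed the filter on low counts, among them all 10 members. The labelled epithelial tumor cells expressed Krt8, Krt18, Epcam and Cdh1 at a summed 1534 to 1694 CPM (counts scaled to a common library size) in P and 2313 to 2401 CPM in AxR, and all 4 rose. Summed CPM in P and AxR was 0.0652 to 0.365 and 0.254 to 0.284 for 7 leukocyte genes (3 at 0, including Tyrobp and Cd3e), and 0.391 to 0.577 and 0 to 0.0638 for 5 endothelial genes (2 at 0, Emcn and Cldn5). For 5 lung epithelial genes (Scgb1a1 at 0) it was 0.577 to 1.15 and 4.15 to 4.19, mostly Foxj1, and for 6 fibroblast genes (Lum and Thy1 at 0) it was 22.5 to 24.1 and 9.91 to 11.2, mostly Pdgfra. The part of these marker changes in the results was not tested. AxR replicates 1 and 3 differed most from each other, with a chi-square per degree of freedom of 17.9 over genes. The other pairs of the same line had 4.75 to 7.83. Against AxR replicate 2 the value was 6.05 for AxR replicate 1 and 7.63 for AxR replicate 3, so it does not tell which of the pair stood apart. Results are therefore also given without AxR replicate 3, and log2 fold changes of the members also without AxR replicate 1.

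Of the 10 members, 3 rose in AxR (Neat1, Snhg3 and Snhg8), 6 fell (Pvt1, Gas5, Snhg1, Snhg5, Snhg6 and Snhg12) and Malat1 was not called, where a call is an adjusted p under 0.05 in edgeR's quasi-likelihood test. Among all genes tested, 32.8% were called higher and 30.8% lower. The P and AxR libraries of 9 of 10 members did not overlap, and the same held for 68.3% of all genes tested. The median log2 fold change (AxR minus P) was -0.68 over the members and 0.006 over all genes, and the median absolute log2 fold change was 0.80 over the members and 0.35 over all genes. Among the 731 lncRNA genes tested, 23.1% were called higher and 18.6% lower. In bulk RNA, fewer cells that express a gene and less RNA per cell cannot be told apart.

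**Figure D1:**
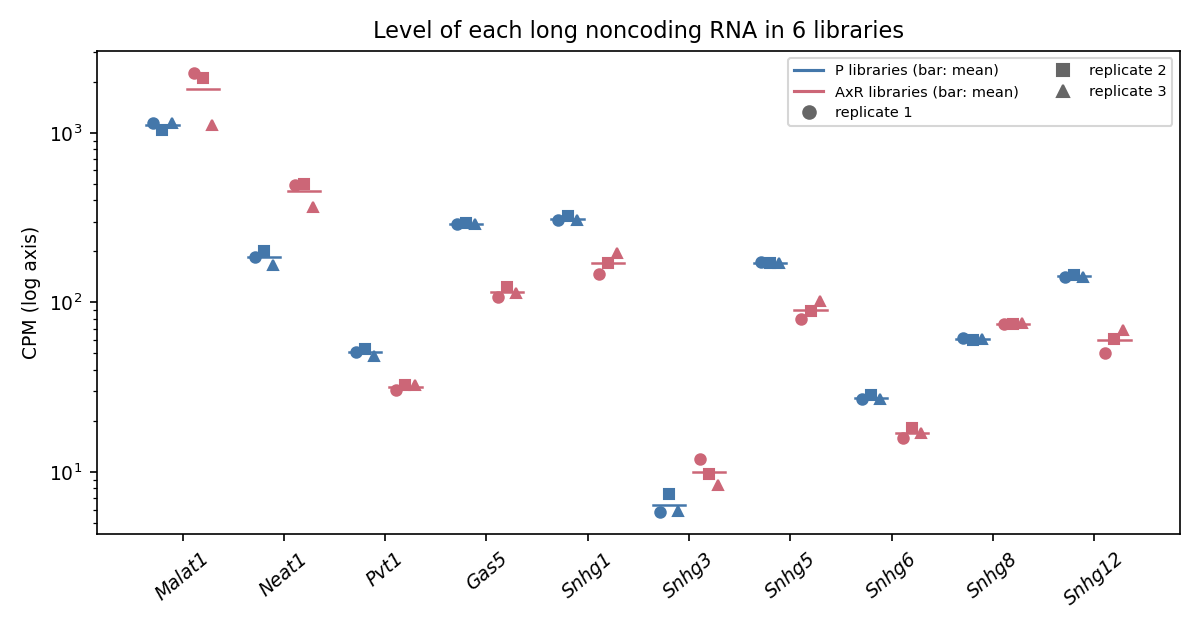
Level of each of the 10 lncRNAs in CPM (log axis) in every library, with P in blue, AxR in red, marker shape for the replicate number and a bar at the mean of 3 libraries. For Malat1, AxR replicate 3 lies among the P libraries, while for the other 9 RNAs the lines are separate.

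Malat1 (19:5795690-5802672, minus strand, a single exon of 6983 bases in its longest transcript) had the highest level per kb of exon among the 10 members in both lines. Its level was 1136, 1041 and 1146 CPM in the P libraries and 2263, 2105 and 1112 CPM in AxR replicates 1, 2 and 3. AxR replicates 1 and 2 were above every P library, while AxR replicate 3 lay within the P range. The mean was 1108 ± 57.8 CPM in P and 1827 ± 624 CPM in AxR (SD, n = 3 libraries). The log2 fold change was 0.72 (SE 0.309, edgeR adjusted p = 0.11), so Malat1 was not called, and the exact two-sided permutation p was 0.3. Without AxR replicate 3 it was 0.98 (SE 0.0508, edgeR adjusted p = 2.27e-11), and DESeq2 on all libraries gave 0.71 (adjusted p = 0.0243). The call for Malat1 thus turned on this library and on the tool. Malat1 took 0.106% to 0.115% of the counts in P, 0.218% and 0.209% in AxR replicates 1 and 2, and 0.113% in AxR replicate 3.

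Neat1 (19:5824708-5845478, minus strand) rose. It was at 186, 201 and 167 CPM in P and at 493, 497 and 366 CPM in AxR. Every AxR library was above every P library, and AxR replicate 3 was the lowest of the AxR libraries, as for Malat1. The mean rose 2.44-fold, from 185 ± 17.1 to 452 ± 74.6 CPM (SD, n = 3), a log2 fold change of 1.29 (SE 0.141, edgeR adjusted p = 3.40e-04). Without AxR replicate 3 the log2 fold change was 1.42. The count of Neat1 was 0.164, 0.193 and 0.146 times that of Malat1 in P and 0.218, 0.236 and 0.329 times in AxR, so the ratio was highest in the AxR library with the least Malat1. Gene-level counts sum the long and the short Neat1 transcripts, which are therefore not separated here.

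Of the other lncRNAs listed as nuclear or chromatin-associated, 22 were in the table and 11 were tested. Of the latter, 3 rose (27.3%), 1 fell (9.09%) and 7 were not called, with a median log2 fold change of 0.14. The list was drawn up by name, and where its RNAs lie in the cell was not measured. Some of them, such as Norad and Oip5os1, need not be nuclear. Firre, an X-linked RNA involved in nuclear organisation, rose from 22.9 ± 1.78 to 42.3 ± 2.48 CPM (log2 fold change 0.88). Dleu2 (log2 fold change 0.63, edgeR adjusted p = 0.0345) and Ftx (0.38, edgeR adjusted p = 0.0479) were also called higher, although their libraries overlapped. Oip5os1 (also known as Cyrano) fell from 128 ± 5.95 to 110 ± 10.9 CPM (log2 fold change -0.22). Xist, the RNA that coats the inactive X chromosome, had too few counts to test, at 0.219 CPM in P and 0.229 CPM in AxR.

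The low AxR replicate 3 of Malat1 was also seen in some of these RNAs, which were picked out after their values were seen. Kcnq1ot1, an imprinted antisense RNA, was at 34.8, 33.8 and 30.3 CPM in P and at 49.8, 48.1 and 26.2 CPM in AxR replicates 1, 2 and 3. Dleu2 was at 7.05, 6.52 and 8.15 CPM in P and at 12.8, 13.8 and 7.28 CPM in AxR. Dleu2 was called higher although its libraries overlapped, and Kcnq1ot1 was not called. In both RNAs AxR replicate 3 was within or below the P range while the other AxR libraries were above it. Tug1, at 279 ± 13.3 and 278 ± 5.62 CPM, and Norad, at 216 ± 14.2 and 226 ± 22.6 CPM, were not called.

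**Figure D2:**
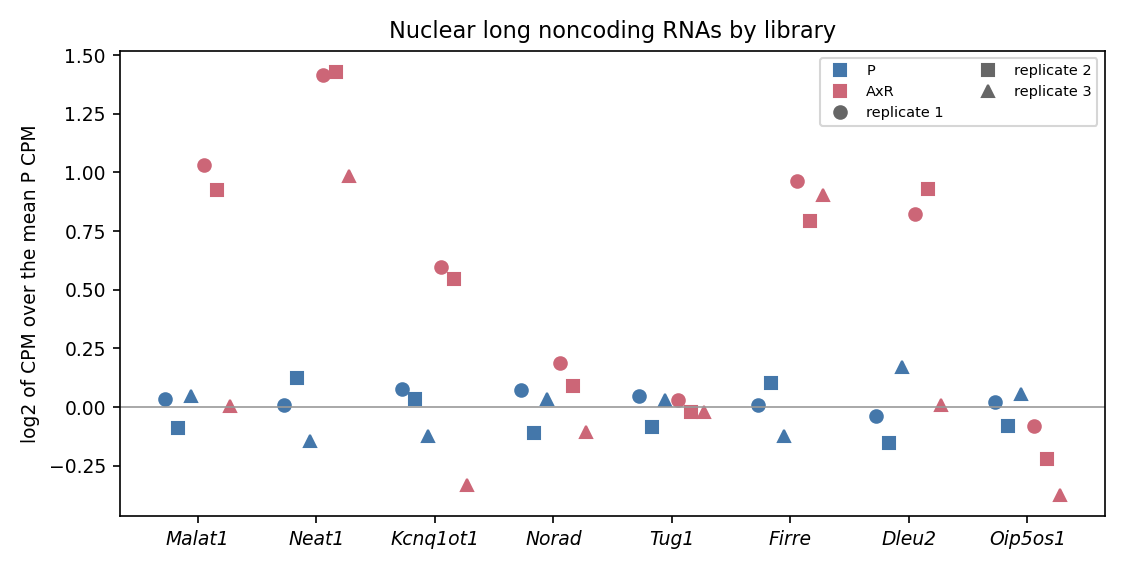
Log2 of the CPM of each library over the mean CPM of the P libraries (P blue, AxR red, marker shape for the replicate number). Shown are Malat1, Neat1 and the other lncRNAs listed as nuclear or chromatin-associated with at least 10 CPM in 1 line. AxR replicate 3 (triangle) lies near 0 for Malat1 and Dleu2 and below 0 for Kcnq1ot1, while all 3 AxR libraries of Neat1 and Firre are well above 0.

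The proteins of the nuclear bodies in which Malat1 and Neat1 reside were measured as their mRNAs. Of 24 paraspeckle proteins, 11 rose (45.8%), 1 fell (4.17%) and 12 were not called, with a median log2 fold change of 0.07. Sfpq and Nono, which bind Neat1 and are needed for paraspeckles, rose from 261 ± 10.7 to 294 ± 19.5 CPM (log2 fold change 0.17) and from 350 ± 1.15 to 405 ± 20.3 CPM (0.21). Rbm3, a cold-induced RNA-binding protein, rose most of the list, from 146 ± 29.1 to 434 ± 54.5 CPM (1.57). Nudt21, a subunit of the cleavage factor that selects polyadenylation sites, fell from 159 ± 8.03 to 138 ± 4.7 CPM (-0.21).

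Of 25 genes of nuclear speckles and Malat1 processing, 5 rose (20%), 12 fell (48.0%) and 8 were not called, with a median log2 fold change of -0.11. Son, a scaffold protein of speckles, fell from 569 ± 14.7 to 333 ± 20.5 CPM (-0.77). Mettl16, an RNA methyltransferase that binds the triple helix at the Malat1 3′ end, fell from 87.1 ± 0.614 to 74.8 ± 3.02 CPM (-0.22). Rnpc3, a protein of the minor spliceosome, rose from 21.6 ± 1.01 to 37.5 ± 2.36 CPM (0.80). Srsf1, a splicing factor that Malat1 binds, was at 397 ± 33.6 and 441 ± 32.3 CPM and was not called (edgeR adjusted p = 0.0599).

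Pvt1 (15:62037986-62378096, plus strand), which lies beside Myc and is often amplified with it in tumors, fell. It was at 51.2, 53.2 and 48.1 CPM in P and at 30.4, 32.5 and 32.4 CPM in AxR. The lines did not overlap and the AxR libraries lay close together. The mean fell from 50.8 ± 2.55 to 31.8 ± 1.17 CPM, a log2 fold change of -0.68 (SE 0.0665, edgeR adjusted p = 3.96e-07). Myc, 47612 bases away on the same strand, fell from 929 ± 48.5 to 501 ± 87.5 CPM (log2 fold change -0.89, edgeR adjusted p = 6.89e-04). On the other side Fam49b, as far as 1551001 bases away, was not called (-0.12), and the median over the 527 genes tested on chromosome 15 was 0.12. Whether the copy number of this region differed between the lines was not tested.

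Of the 7 snoRNA hosts, 5 fell and 2 rose, with a median log2 fold change of -0.87. Their summed level was 1005, 1027 and 1001 CPM in P and 487, 545 and 580 CPM in AxR. The sum was lower in every AxR library than in any P library. Among all genes tested, 30.8% were called lower and 32.8% higher, and the libraries of 68.3% did not overlap between the lines.

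Gas5 (1:161034422-161038539, plus strand), which was named for its accumulation in growth-arrested cells, had the lowest log2 fold change of the members with all libraries. Within it lie 10 annotated snoRNA entries, of which both Snord80 entries cover the same place. It was at 290, 294 and 289 CPM in P and at 108, 123 and 114 CPM in AxR. Every AxR library was far below the lowest P library. The mean was 2.54 times higher in P, at 291 ± 2.93 against 115 ± 7.41 CPM, a log2 fold change of -1.34 (SE 0.0536, edgeR adjusted p = 2.04e-11).

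Snhg12 (4:132308623-132311024, plus strand), with 5 annotated snoRNA entries of which both Snora16a entries cover the same place, was the other host to fall by more than 1 on the log2 scale with all libraries. Leaving out AxR replicate 3 gave Snhg12 -1.36 and Gas5 -1.34 (log2 fold change), so the order of the pair depends on that library. It was at 141, 145 and 141 CPM in P and at 50, 60.6 and 68.6 CPM in AxR. All AxR libraries were below the P libraries, with AxR replicate 3 the nearest to them. The means were 142 ± 2.27 and 59.7 ± 9.28 CPM, with a log2 fold change of -1.25 (SE 0.0893, edgeR adjusted p = 1.97e-07).

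Snhg1 (19:8723475-8726443, plus strand), host of 8 annotated snoRNA entries, was at 307, 322 and 308 CPM in P and at 147, 170 and 195 CPM in AxR. The lines were separate, and the AxR libraries were more spread than the P libraries. The log2 fold change was -0.87 (SE 0.0834, edgeR adjusted p = 3.67e-06), from 312 ± 8.36 to 171 ± 23.9 CPM.

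Snhg5 (9:88521050-88522929, minus strand), host of the box C/D snoRNAs of the Snord50 family, was at 173, 170 and 170 CPM in P and at 80.1, 89.0 and 102 CPM in AxR. Its P libraries hardly differed, and each AxR library lay well below them. The log2 fold change was -0.92 (SE 0.0715, edgeR adjusted p = 5.77e-08), from 171 ± 1.5 to 90.4 ± 11.1 CPM.

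Snhg6 (1:9941959-9944118, minus strand), host of Snord87, was at 27.0, 28.6 and 26.8 CPM in P and at 15.9, 18.1 and 17 CPM in AxR. The lines did not overlap. The log2 fold change was -0.69 (SE 0.0768, edgeR adjusted p = 1.49e-06), from 27.5 ± 0.979 to 17 ± 1.09 CPM.

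Snhg8 (3:123507552-123508404, minus strand), host of Snora24, rose slightly. It was at 61.5, 60.1 and 60.8 CPM in P and at 74.3, 74.8 and 75.4 CPM in AxR. Both lines were tightly grouped, and the ranges were separate although the difference was small. The mean rose 1.23-fold, from 60.8 ± 0.703 to 74.8 ± 0.569 CPM, a log2 fold change of 0.30 (SE 0.0521, edgeR adjusted p = 1.31e-04). The median over the 717 genes tested on chromosome 3 was 0.32, so Snhg8 moved by -0.02 relative to its chromosome.

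Snhg3 (4:132348014-132353686, minus strand), host of the box H/ACA snoRNAs Snora73a and Snora73b, rose. It was at 5.77, 7.39 and 5.87 CPM in P and at 11.9, 9.76 and 8.36 CPM in AxR. The ranges were separate, with AxR replicate 3 close to the highest P library. The log2 fold change was 0.65 (SE 0.148, edgeR adjusted p = 0.00137), from 6.34 ± 0.907 to 10 ± 1.77 CPM. Rcc1, a protein-coding gene on the same strand, overlaps Snhg3 exons and fell from 97.1 ± 1.92 to 68.3 ± 3.35 CPM (log2 fold change -0.51). Rcc1 had 16.4, 13.3 and 16.7 times the counts of Snhg3 in P and 5.59, 6.80 and 8.63 times in AxR. None of the Snhg3 values was a whole number, which shows that reads were divided with other transcripts, so its level is uncertain. No value of Malat1 was whole either, and 35 of the 60 values of the members were not. A fraction does not show how large the divided part was.

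**Figure D3:**
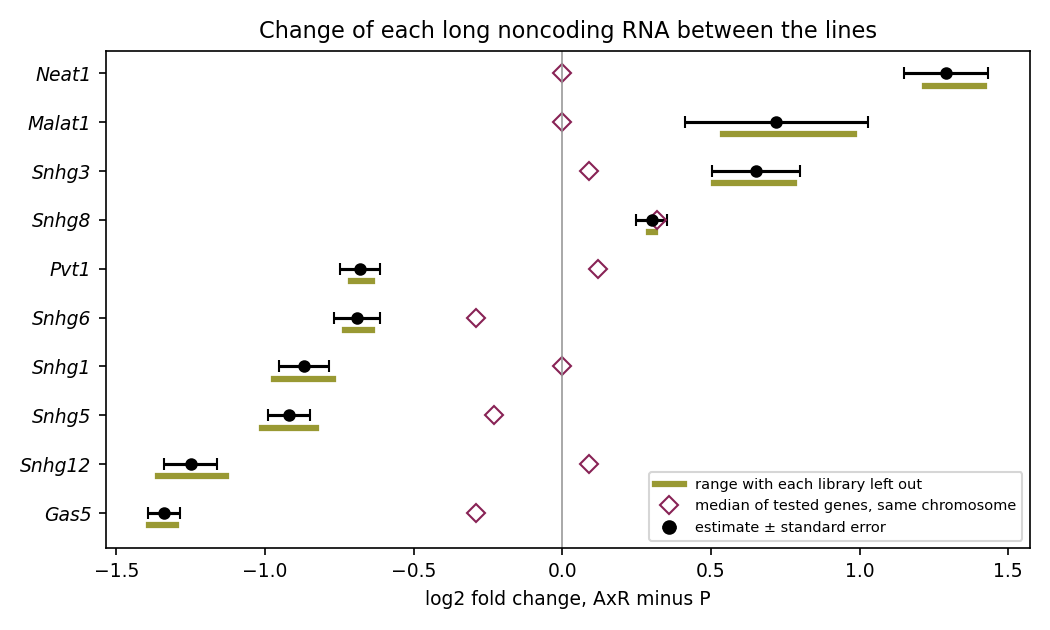
Log2 fold change (AxR minus P) of each lncRNA with its standard error (black), the range with each library left out in turn (olive) and the median of the tested genes of the same chromosome (open diamonds). The 6 RNAs that fell lie between -1.34 and -0.68, below the medians of their chromosomes, and Snhg8 lies on its own.

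The smallest exact two-sided permutation p that 3 libraries against 3 can give is 0.1, which was reached by all members but Malat1. Without AxR replicate 3 the 9 called members kept their call and direction, at log2 fold changes of 1.42 (Neat1), 0.77 (Snhg3), 0.30 (Snhg8), -0.69 (Pvt1), -1.34 (Gas5), -0.97 (Snhg1), -1.01 (Snhg5), -0.69 (Snhg6) and -1.36 (Snhg12). Without AxR replicate 1 they also kept call and direction, at 1.23 (Neat1), 0.51 (Snhg3), 0.31 (Snhg8), -0.64 (Pvt1) and -1.30 (Gas5). The other called members were then at -0.77 (Snhg1), -0.83 (Snhg5), -0.64 (Snhg6) and -1.13 (Snhg12), and Malat1, not called, was at 0.54. AxR replicate 3 was the AxR library nearest the P mean for 6 members, and for 42.1% of all called genes.

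Levels between genes were compared per kilobase of exon. In P, Malat1 was highest at 159 ± 8.28 CPM per kb, followed by Snhg1 (105), Snhg5 (98.8), Gas5 (77.4), Snhg8 (71.3), Snhg12 (59.2), Snhg6 (24.0), Neat1 (8.89), Pvt1 (7.26) and Snhg3 (6.43). Of neighbours in this order, Pvt1 and Snhg3 alone had overlapping libraries. In AxR the order was Malat1 (262 ± 89.4 CPM per kb), Snhg8 (87.7), Snhg1 (57.5), Snhg5 (52.2), Gas5 (30.5), Snhg12 (24.9), Neat1 (21.8), Snhg6 (14.9), Snhg3 (10.1) and Pvt1 (4.54). Snhg8 thus passed 3 hosts that had been above it, and Neat1 passed Snhg6. The libraries of Snhg1 and Snhg5, and those of Snhg12 and Neat1, overlapped in AxR. Divided by the longest transcript in place of all exons, the P levels became 140 for Snhg5, 114 for Gas5 and Snhg1 and 92.5 for Snhg12, so the order among hosts depends on the length used. By that length Pvt1 was at 15.3 and Snhg3 at 10.9 in P, so that Neat1 at 8.89 was below both rather than above them. For Neat1 both lengths are 20771 bases, that of the long transcript. Its counts also include the short transcript of 3004 bases, and the share of each is not known. The place of Neat1 in both orders, and its move past Snhg6, therefore depend on the long length.

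Ranked per kb among the 13550 genes tested, Malat1 was number 260 in P and 152 in AxR, and Neat1 moved from 5464 to 2467. Malat1 was not called, and AxR replicate 3, at 159 CPM per kb, was level with its P mean. The ranks of Neat1 rest on the length of its long transcript. Gas5 moved from 536 to 1673 and Snhg12 from 728 to 2118. Together the 10 members took 0.241%, 0.236% and 0.234% of the counts in P and 0.316%, 0.316% and 0.212% in AxR replicates 1, 2 and 3.

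The other lncRNAs that host snoRNAs were a list of 14, of which 12 were in the table and 9 were tested. Of these, 2 rose (22.2%), 4 fell (44.4%) and 3 were not called, with a median log2 fold change of -0.57. Zfas1, host of snoRNAs of the Snord12 family, fell furthest, from 218 ± 5.8 to 70.8 ± 7.48 CPM (-1.62, edgeR adjusted p = 3.51e-11). Snhg16 (-1.55), Snhg17 (-1.25) and Snhg15 (-1.10) also fell. Snhg20 rose from 9.2 ± 0.757 to 13.5 ± 2.21 CPM (0.55), and Snhg14 rose (0.53). Snhg10, Dancr and Epb41l4aos were not called. The median is the value of Dancr, at 0.794 CPM in P and 0.534 CPM in AxR, and describes neither the 4 that fell nor the 2 that rose.

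Of 30 protein-coding genes that host snoRNAs, mostly ribosomal proteins and translation factors, 6 rose (20%), 16 fell (53.3%) and 8 were not called, with a median log2 fold change of -0.14. Ncl, the nucleolar protein nucleolin, fell from 2226 ± 32.4 to 1539 ± 86.9 CPM (-0.53), and Hspa8, a cytosolic chaperone, rose from 776 ± 38.7 to 1644 ± 94.8 CPM (1.08). Ribosomal protein genes have many pseudogenes, among which their reads may be divided.

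Of 20 proteins that form or assemble snoRNPs, 6 rose (30.0%), 10 fell (50%) and 4 were not called, with a median of -0.15. Fbl, the methyltransferase of box C/D particles, fell from 102 ± 1.9 to 81.1 ± 0.882 CPM (-0.33), and Dkc1, the pseudouridine synthase of box H/ACA particles, fell from 159 ± 7.69 to 144 ± 3.51 CPM (-0.15). Naf1, an assembly factor of box H/ACA particles, fell from 133 ± 5.68 to 88.5 ± 1.38 CPM (-0.58). Pih1d1, a subunit of the R2TP chaperone complex, rose from 11.1 ± 0.138 to 17.8 ± 0.841 CPM (0.68).

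Of 20 factors of nonsense-mediated decay, 7 rose (35.0%), 7 fell (35.0%) and 6 were not called, with a median of 0.05. Upf1, the central helicase of the pathway, fell from 124 ± 4.88 to 101 ± 2.85 CPM (-0.30). Etf1, the translation termination factor, rose from 262 ± 8.04 to 419 ± 19.8 CPM (0.68). Magohb, an exon junction protein, fell from 17.5 ± 1.34 to 8.51 ± 1.05 CPM (-1.04), but it can share reads with its near-identical copy Magoh, which was not called (0.14).

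**Figure D4:**
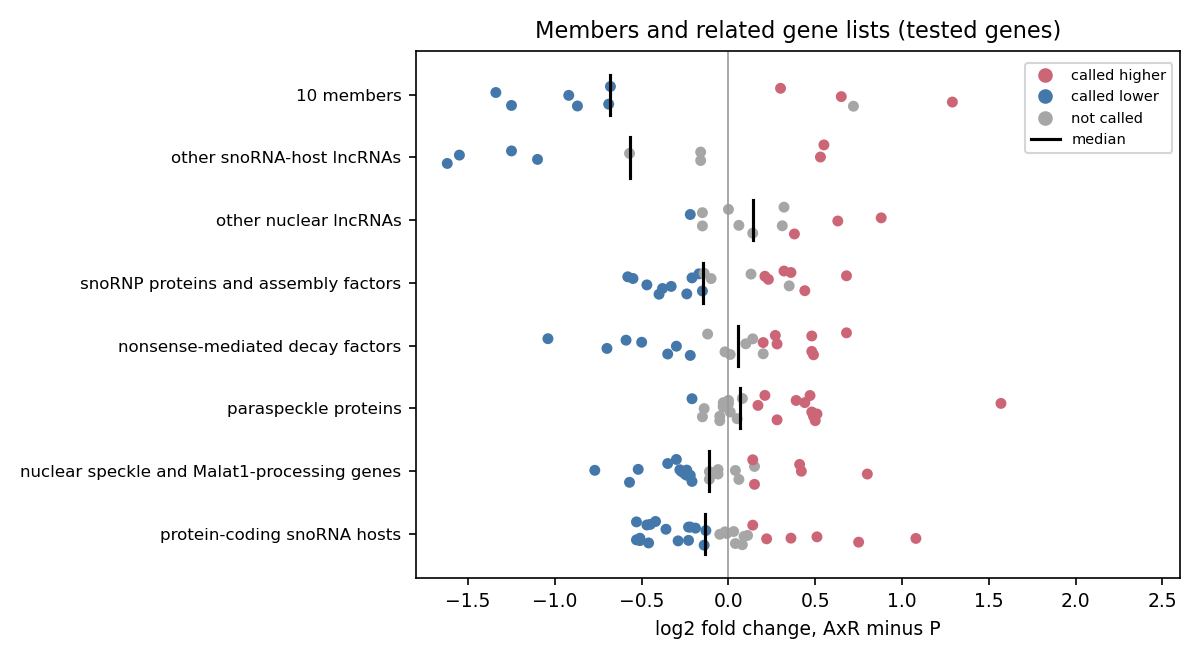
Log2 fold change (AxR minus P) of the members and of the tested genes of each related list, 1 point per gene, red where called higher, blue where called lower and grey where not called, with a bar at the median. The medians are -0.68 for the members and -0.57 for the other snoRNA-host lncRNAs, and lie between -0.15 and 0.14 for the remaining lists. The value of -0.57 is that of Dancr, which was not called.

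Nearest tested protein-coding genes were compared with each member to place it in its surroundings. On chromosome 19, Frmd8, 4224 bases from Neat1, rose by 0.20 on the log2 scale. Beside Gas5, Rc3h1 was called higher (0.19) although its libraries overlapped, and Zbtb37, which overlaps Gas5 on the opposite strand, fell (-0.46). Slc3a2, an amino acid transporter subunit whose gene starts 106 bases from Snhg1 on the opposite strand, was at 373 ± 20.1 and 339 ± 31.1 CPM and was not called (-0.14), while Wdr74 on the other side fell (-0.58). Trnau1ap, 739 bases from Snhg12, was not called (-0.01), and Taf12 fell (-0.47).

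Beside Snhg5, both neighbours fell, Syncrip (-0.62) and Zfp949 (-1.15). Beside Snhg6, Sgk3, a serum- and glucocorticoid-regulated kinase, fell from 30.6 ± 1.24 to 5.93 ± 0.639 CPM (-2.37), and Cops5 was not called (-0.15). Beside Snhg8, Prss12, whose end lies 955 bases away on the opposite strand, fell from 12.9 ± 0.865 to 0.552 ± 0.0351 CPM (-4.53), and Ndst3 fell (-0.92). Snhg8 and its nearest neighbour thus moved in opposite directions. Phactr4, beside Snhg3, was not called (-0.09).

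**Figure D5:**
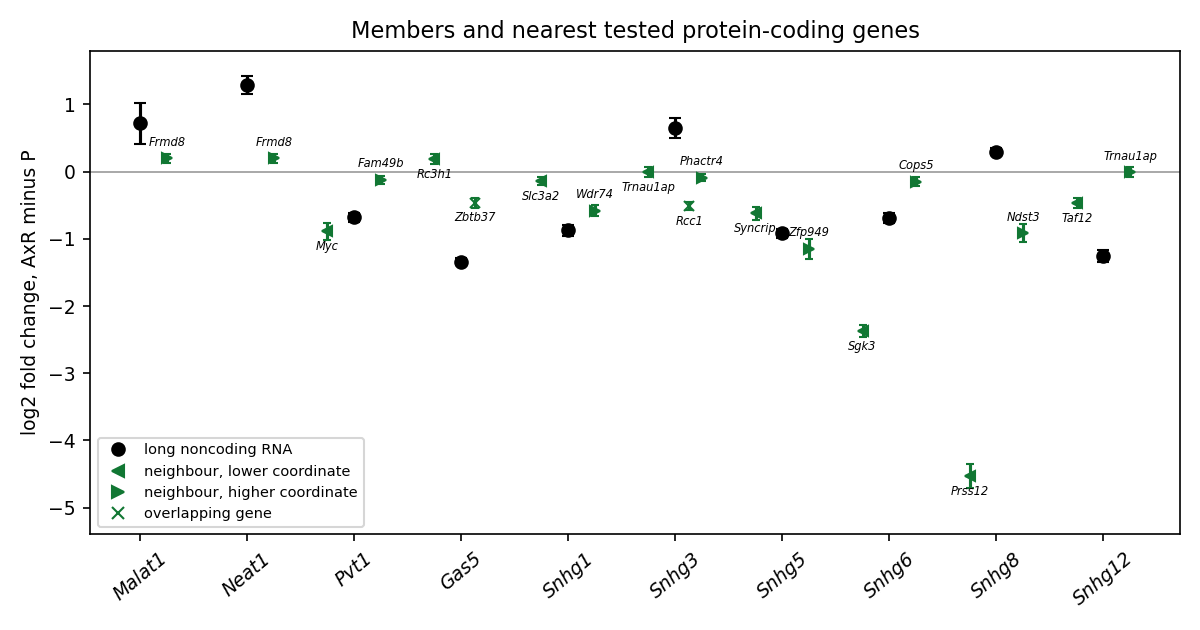
Log2 fold change (AxR minus P) with its standard error of each lncRNA (black) and of nearest tested protein-coding genes at lower and higher coordinates and of overlapping genes (green). Prss12 beside Snhg8 has the lowest value, -4.53, while Snhg8 is at 0.30, and Myc beside Pvt1 moved the same way as Pvt1.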

How the data were processed

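RNA of 3 P and 3 AxR libraries was sequenced from the TruSeq Stranded mRNA kit, with groups taken from the sample titles. The authors checked reads with FastQC 0.11.5, aligned them with STAR 2.6.0a to GRCm38 with GENCODE M16 and deposited RSEM 1.3.1 estimated counts per gene, not normalized. RSEM divides reads shared between genes; the strand setting of the counting was not given in the sources used here. Symbols, positions and lengths came from GENCODE M21, in which 53360 of 53465 identifiers were found.

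Rounded counts were passed to edgeR 4.0.16 (R 4.3.3), where filterByExpr removed low genes and the upper quartile set the scaling. A quasi-likelihood model with the line as its single factor gave p-values, which received a Benjamini-Hochberg adjustment over 13550 genes (threshold 0.05). The code was tested on simulated data. The totals of 15495260 to 17294525 estimated counts put a floor of 3 counts at 0.171 to 0.196 CPM, for counting error only. CPM used the effective library sizes. Permutation tests used log2(CPM + 0.5). Same-numbered P and AxR libraries did not deviate together, so no block was used.

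All members were named, and from each list the called genes with the highest and the lowest log2 fold change (at least 10 CPM in 1 line, lines not overlapping), with Fbl, Dkc1, Upf1, Sfpq, Nono, Srsf1, Mettl16, Zfas1 and Xist. The nearest tested protein-coding genes, of which 2 are not reported here, and the cell type genes were named too. Genes named beyond that rule were chosen after their values were seen. Members and lists were chosen with earlier results of these data known. Alternatives were TMM and library size scaling, DESeq2 1.42.0, limma 3.58.1 (voom), other count filters, a replicate block, a fold threshold, another gene length and leaving out each library.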

Additional observations from a re-analysis of the deposited data

How the results depend on the processing

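The 9 called members kept their direction and call under every alternative that changed the normalization, the tool, the count filter or the libraries, and Malat1 stayed higher in AxR, at log2 fold changes of 0.54 to 0.98 and edgeR, DESeq2 or limma adjusted p of up to 0.257. Malat1 was called by DESeq2 and without AxR replicate 3. When a call also had to reach 1 on the log2 scale in either direction, the counts fell to 1083 higher and 640 lower over all genes and to 1 higher (Neat1) and 2 lower (Gas5 and Snhg12) among the members. With each library left out, 4124 to 4499 genes were called higher and 3782 to 4112 lower, and among the members 3 to 4 higher and 6 lower.

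With the replicate number as a block, 4304 genes were called higher and 4023 lower, and 3 and 6 members. The block ended no call of a member. Deviations of same-numbered libraries correlated at -0.0213, -0.0061 and -0.0217, so the numbers do not pair the samples. Most levels per kb moved by over 1 SD with the longest transcript as length (15 of 20). With a minimum of 10 counts in every library, which leaves fewer genes tested, the median of the other snoRNA-host lncRNAs was -1.10, and without P replicate 1 it was -0.27. Of the other lncRNAs listed as nuclear or chromatin-associated, 1 was called higher with limma. The same number was called higher when P replicate 1, P replicate 2 or AxR replicate 1 was left out. Oip5os1, the 1 that fell, was not called when P replicate 3 was left out. Of the other snoRNA hosts, 1 in place of 2 was called higher with DESeq2 and when P replicate 2, AxR replicate 1 or AxR replicate 2 was left out. Of the paraspeckle proteins, 2 in place of 1 were called lower with TMM, with library size scaling, with DESeq2, with the block, with no count filter and when P replicate 1, AxR replicate 2 or AxR replicate 3 was left out. Depth limits the lowest members, such as Snhg3, and the untested list genes.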

Other observations

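Transcripts annotated on the opposite strand of members also had counts. Gm37376, which overlaps the Malat1 exon, had 198.18, 275.11 and 102.88 estimated counts in P and 319.43, 254.78 and 182.11 in AxR, a range that overlapped between the lines. Gm17300, which overlaps Snhg3 exons, had 62.86, 57.65 and 52.28 estimated counts in P and 87.73, 73.09 and 81.53 in AxR, with every AxR library above every P library. The strand setting of the counting is not known from the sources used here, so reads of these genes and of the members on the other strand cannot be told apart.

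Of the 29 snoRNA entries annotated inside the 7 hosts, 22 were at 0 counts in all 6 libraries, and the highest value was 8.40 estimated counts, in an entry within Snhg3. Mature snoRNAs lack a poly(A) tail and were not measured by these libraries.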
